A study of Bos taurus with 32 samples.

Results

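The comparison concerns the liver of dairy cows shortly before calving, fed a high-energy diet (HIGH) or a controlled-energy diet (CON). Its members are the 10 arrays of the 32 in the series that were taken at -8 d, that is 8 d before the predicted calving date: 5 HIGH cows and 5 CON cows, each cow giving 1 array. The animals were Ayrshire cows, a dairy breed, allocated to a diet for the 6 weeks before predicted calving, and the liver was sampled by biopsy. The later arrays, 6 HIGH and 4 CON at 1 d and 6 HIGH and 6 CON at 9 d after actual calving, entered the same model and are cited where they bear on a gene named here. The design text speaks of 16 cows, whereas the arrays came from 12. Because sampling was timed to a predicted date, the interval to actual calving may have differed between cows and is not given in the labels. The cows below are numbered as in the array titles at -8 d, and a number in one diet has no tie to the same number in the other.

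In the weeks before calving a cow's energy demand climbs while appetite declines, and the liver takes up fatty acids released from adipose tissue, oxidises or re-esterifies them, and makes glucose from propionate, lactate and amino acids. Ruminant liver synthesises little fat itself, since adipose tissue is the main site of that work. Feeding above requirement during the dry period is studied because it can alter fat mobilisation and liver metabolism around calving, and whether it leaves a mark on liver transcripts before calving is what this comparison addresses.

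Expression was given as log2 RMA values (robust multi-array average, a background-corrected and quantile-normalised summary of the probes of each probe set), so that a difference of 1.0 is 2-fold. RMA gives the arrays a common distribution, which makes every difference relative to the other probe sets. Of 24016 probe sets tested, 13292 carried 1 gene symbol in the annotation, standing for 9155 genes, and each gene is represented by its brightest probe set. Differences are HIGH minus CON from the fit, which borrows from each cow's other days and therefore departs slightly from the plain difference of the group means. The biopsies carried hepatocyte transcripts at the top of the scale: ALB (albumin) was 14.97 ± 0.02 in HIGH and 14.95 ± 0.01 in CON (SD, n = 5 each), and TTR (transthyretin) was 14.35 ± 0.04 and 14.32 ± 0.04. Probe sets for 15 of the 16 hepatocyte markers listed were found. The adipocyte gene ADIPOQ (adiponectin) sat near the bottom, at 3.17 ± 0.13 in HIGH and 3.13 ± 0.07 in CON.

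The 10 arrays were alike. Pairwise correlations over probe sets ran from 0.9883 to 0.9942, and their mean was 0.9921 within HIGH, 0.9924 within CON and 0.9922 between the diets. In a principal component analysis of the 10 arrays the leading component took 18.4% of the variance, and its scores overlapped between the diets (two-sided exact permutation p = 0.159). HIGH cow 1 lay at one end of it and CON cow 1 at the other. The values of HSPA5, MANF, APOA1, LOXL4, THRSP, PC, LDHA, IGFBP1 and the lists that lean on these arrays are therefore also given without 1 or both. HIGH cow 1 and CON cow 1 were the opposite extremes for SMIM10, GSTT1, SOD3, CD209, MORC4, SLC33A1, BPNT2 and IDH3A too. For these genes no value without the 2 cows is given, so their differences may also lean on them. The difference between 3' and 5' probe sets of the GAPDH control, a measure of RNA integrity, was 0.55 ± 0.08 in HIGH and 0.536 ± 0.0434 in CON (SD, n = 5 each, exact permutation p = 0.77). For the actin control it was 1.67 ± 0.37 and 1.53 ± 0.12 (exact permutation p = 0.484), with HIGH cows 1 and 2 highest, at 1.86 and 2.20. For the elongation factor control it was -0.65 ± 0.11 and -0.72 ± 0.13 (exact permutation p = 0.413). The part of RNA integrity in the values below was not tested. The files used here carry no scan date or other batch.

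No probe set differed between the diets at -8 d after adjustment for multiple testing. In limma with cow as a random block, 0 of 24016 passed a Benjamini-Hochberg adjusted p of 0.05, and the smallest adjusted p was 0.586. At an unadjusted p under 0.05 there were 1025 probe sets (4.27%), 544 higher in HIGH (2.27%) and 481 lower (2.00%). Counted by gene these were 393 of 9155 (4.29%), 189 higher (2.06%) and 204 lower (2.23%). The 5 HIGH arrays lay wholly above or wholly below the 5 CON arrays for 82 genes (0.896%), 39 above (0.426%) and 43 below (0.47%).

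The fit bounded most differences in array value closely. The standard error (SE) of the difference had a median of 0.102 over probe sets, and the median size of the difference was 0.0695. For 93.2% of probe sets the 95% interval of the difference lay within 1.5-fold in either direction, and for 98.5% within 2-fold. Point differences of 1.5-fold or more were found for 114 probe sets (62 higher, 52 lower), and of 2-fold or more for 28 (14 in each direction). These intervals hold for each probe set singly and are not adjusted for their number. The shares include dim probe sets, where the arrays barely tell signal from background, so a narrow interval there does not bound a difference in expression.

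**Figure D1:**
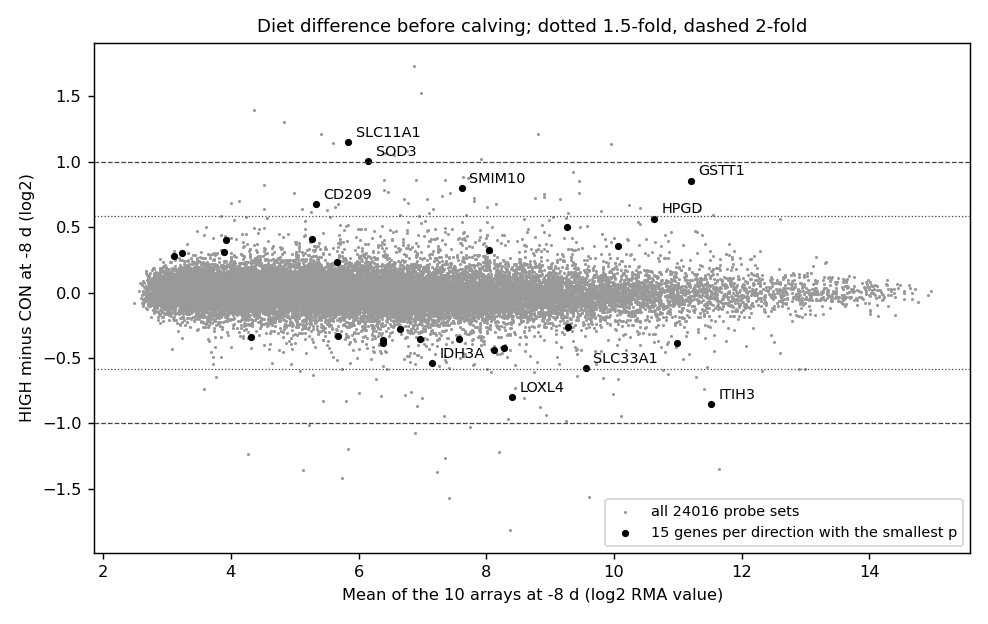
HIGH minus CON at -8 d (log2, vertical) against the mean of the 10 arrays at -8 d (log2 RMA value, horizontal) for all 24016 probe sets (grey), with the 15 genes of each direction that had the smallest p in black. Most of the grey points lie between the dotted lines at 1.5-fold, and 28 lie at or beyond the dashed lines at 2-fold.

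The genes higher in HIGH with the smallest p, none of which passed the adjusted threshold, are given first. SMIM10, a small membrane protein gene, had the smallest p of all. It was 8.24, 7.88, 8.05, 7.81 and 8.09 in HIGH cows 1 to 5, against 6.71, 7.61, 7.36, 7.01 and 7.44 in CON cows 1 to 5. Every HIGH cow was above every CON cow, the difference was 0.80 (SE 0.16, adjusted p = 0.586 in limma), and at 1 d and 9 d after calving it was 0.18 (SE 0.17) and 0.22 (SE 0.15). A permutation of the 10 arrays gave p = 0.00794 for this gene, the smallest that 5 against 5 allows. That value restates the lack of overlap, and 171 of 24016 probe sets (0.712%) reached it. As the gene was picked by its p in the same arrays, the permutation is not separate support.

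GSTT1, a glutathione S-transferase that conjugates reactive compounds, is abundant in these livers. Its values were 12.14, 11.63, 11.06, 11.66 and 11.67 in HIGH cows 1 to 5, against 10.44, 11.03, 10.81, 10.60 and 10.99 in CON cows 1 to 5. The groups did not overlap, although HIGH cow 3 and CON cow 2 were only 0.03 apart. The difference was 0.85 (SE 0.22), or 1.81-fold, and it was 0.55 (SE 0.22) at 1 d and 0.70 (SE 0.20) at 9 d, mostly in the same cows. HPGD, the dehydrogenase that inactivates prostaglandins, had differences of a like sign on all 3 days. It averaged 10.91 ± 0.15 in HIGH and 10.36 ± 0.31 in CON (SD, n = 5 each) without overlap at -8 d, a difference of 0.56 (SE 0.17), and the differences were 0.54 (SE 0.18) at 1 d and 0.42 (SE 0.16) at 9 d. Both probe sets of HPGD gave a similar value at -8 d, 0.56 and 0.60.

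SOD3, the extracellular superoxide dismutase, was 7.55, 6.66, 6.24, 5.83 and 7 in HIGH cows 1 to 5, against 4.93, 6.06, 5.22, 6.02 and 6.03 in CON cows 1 to 5. HIGH cow 4 lay within the CON range, and the difference was 1.01 (SE 0.26). A second SOD3 probe set, dimmer than the first, differed by only 0.04. SLC11A1, a metal ion transporter of macrophage phagosomes, was 6.49, 5.78, 6.43, 7.40 and 6.03 in HIGH, against 5.19, 5.03, 5.37, 4.83 and 5.86 in CON. Only HIGH cow 2 and CON cow 5 were out of order, and the difference of 1.15 (SE 0.26) was 2.22-fold. CD209, a C-type lectin of dendritic cells and macrophages, was 5.99, 5.78, 5.69, 5.59 and 5.30 in HIGH, against 4.88, 5.00, 5.07, 5.01 and 5.04 in CON. The CON cows were tightly grouped below all the HIGH cows, with a difference of 0.68 (SE 0.18).

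The remaining genes of the 15 with the smallest p on the higher side had differences of 0.24 to 0.50. They were GHDC (0.33), BLOC1S6 (0.50), a subunit of a complex that forms lysosome-related organelles, DISP1 (0.41), which acts in the release of Hedgehog proteins, DNAAF11 (0.40), ALDH4A1 (0.36), an enzyme of proline breakdown, HEY1 (0.31), a transcriptional repressor downstream of Notch, OPTC (0.30), DMP1 (0.28) and CERS4 (0.24), a ceramide synthase. A second probe set gave 0.13 for GHDC, 0.05 for DISP1 and 0.54 for BLOC1S6. OPTC and DMP1, known as extracellular matrix genes, had means of only about 3 in both diets. That is the dim end of the scale, where the arrays barely tell signal from background.

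**Figure D2:**
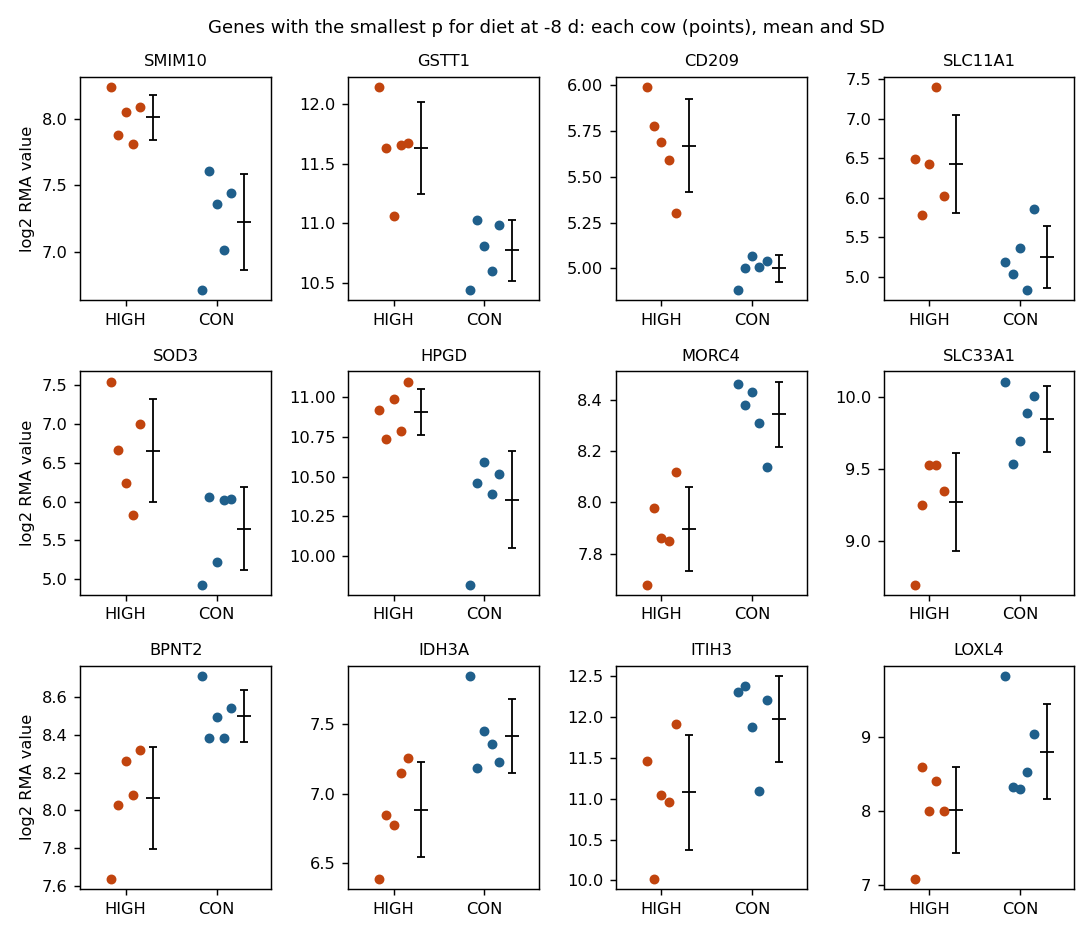
Log2 RMA values at -8 d of 12 genes with small p, 1 point per cow (HIGH left, CON right), with mean and SD beside them and a separate vertical scale for each gene. The diets do not overlap for SMIM10, GSTT1, CD209, HPGD, MORC4, SLC33A1 and BPNT2, and they overlap by 1 or more cows for the other genes.

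The genes lower in HIGH with the smallest p likewise did not pass the adjusted threshold. SLC33A1, which carries acetyl-CoA into the endoplasmic reticulum, was 8.70, 9.25, 9.53, 9.53 and 9.35 in HIGH cows 1 to 5, against 10.11, 9.54, 9.70, 9.89 and 10.01 in CON cows 1 to 5. The diets did not overlap, with 0.01 between the nearest cows, and the difference was -0.58 (SE 0.16). SACM1L, a phosphoinositide phosphatase of the endoplasmic reticulum and Golgi, differed by -0.39 (SE 0.11) in its brightest probe set and -0.37 in the other. BPNT2, a Golgi phosphatase used in sulphation, differed by -0.42 (SE 0.13) without overlap, and RAB11FIP5, an effector of vesicle recycling, by -0.35 (SE 0.10). The other BPNT2 probe set gave -0.37, while another of the 3 for RAB11FIP5 gave only -0.08.

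MORC4 had the smallest p among the genes lower in HIGH: 7.68, 7.98, 7.86, 7.85 and 8.12 in HIGH cows 1 to 5, against 8.46, 8.38, 8.43, 8.31 and 8.14 in CON cows 1 to 5. The difference was -0.44 (SE 0.11). IDH3A, the catalytic subunit of mitochondrial isocitrate dehydrogenase, was 6.89 ± 0.34 in HIGH and 7.42 ± 0.26 in CON (SD, n = 5 each), a difference of -0.54 (SE 0.15). A second IDH3A probe set differed by -0.20. SUCLA2, another citric acid cycle gene, differed by -0.29 (SE 0.12), while the 17 measured genes of that cycle had a median difference of 0.00. LOXL4, a lysyl oxidase-like enzyme of the extracellular matrix, differed by -0.80 (SE 0.26), with CON cow 1 highest at 9.82 and HIGH cow 1 lowest at 7.08, and by -0.34 without these 2 cows. The other genes of this side were ZNF329 (-0.28), MRGBP (-0.33), TDP2 (-0.26), CCDC88A (-0.34), CDCA7L (-0.37), C28H1orf131 (-0.36), DENND2D (-0.38) and ITIH3, described with the acute phase proteins.

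Chaperones and folding enzymes of the endoplasmic reticulum (ER), the machinery that folds secreted proteins such as those the liver exports, were the one list of the 42 examined with every measured member on the same side of 0. Of 22 genes listed, 17 were measured and all 17 averaged lower in HIGH, with a median difference of -0.38 against a median of -0.0048 over all 9155 genes. None passed the adjusted threshold, and for none did the diets separate completely. Of the 17, 11 had an unadjusted p under 0.05 (64.7%), against 4.29% of all genes in either direction. These genes vary together from cow to cow, so their number does not add independent evidence.

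HSPA5 (BiP, the main ER chaperone of the Hsp70 family) was 11.07, 11.94, 12.38, 12.26 and 12.41 in HIGH cows 1 to 5, against 13.12, 12.39, 12, 12.55 and 13.06 in CON cows 1 to 5. CON cows 1 and 5 were high and HIGH cow 1 low, while CON cows 2 and 3 lay within the HIGH range. The difference was -0.60 (SE 0.22), and -0.27 without both HIGH cow 1 and CON cow 1. PDIA3, a disulphide isomerase acting on glycoproteins, had the smallest p of the list. It was 12.20, 12.25, 12.52, 12.21 and 12.34 in HIGH, against 12.76, 12.57, 12.49, 12.62 and 12.63 in CON, where only HIGH cow 3 and CON cow 3 were out of order, and the difference was -0.33 (SE 0.11). HSP90B1 (GRP94, the ER member of the Hsp90 family) differed by -0.38 (SE 0.15) and SEL1L, which serves the removal of misfolded proteins from the ER, by -0.34 (SE 0.14).

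Beyond these, members named after their values were seen were MANF, a secreted protein induced by ER stress, with the largest difference of the list (-0.74, SE 0.31), CALR (calreticulin, -0.41, SE 0.17), HERPUD1 (-0.45, SE 0.20), CANX (calnexin, -0.25, SE 0.11), P4HB (protein disulphide isomerase, -0.22, SE 0.10) and PDIA4 (-0.38, SE 0.17). Without both HIGH cow 1 and CON cow 1 the MANF difference was -0.37. DNAJB11 (-0.03, SE 0.13) and DNAJC3 (-0.11, SE 0.12) lay nearest to 0. Averaged over the 17 genes and set against each gene's 10-array mean, the list stood at -0.52, -0.25, -0.02, -0.17 and -0.01 in HIGH cows 1 to 5, against 0.50, 0.01, -0.05, 0.17 and 0.33 in CON cows 1 to 5. CON cows 2 and 3 lay at the level of HIGH cows 3 and 5. The count of 11 rested on single arrays. It was 3 without CON cow 1, 5 without HIGH cow 1 or without CON cow 5, and 7 without HIGH cow 2 or HIGH cow 4. Without both HIGH cow 1 and CON cow 1, a choice made after seeing the data, it was 1 of 17, with a median of -0.27.

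The ER pattern was not seen after calving. At 1 d the median diet difference of the 17 genes was 0.10, with 14 above 0, and at 9 d it was -0.03. The change of the diet difference between -8 d and 1 d had a median of 0.46, and 11 of 17 genes had an unadjusted p under 0.05 for it, all upward, against 4.05% of all genes upward. None passed the adjusted threshold. PDIA3 was the gene with the smallest p for that change over all genes: its diet difference was -0.33 (SE 0.11) at -8 d and 0.32 (SE 0.11) at 1 d, a change of 0.65 (SE 0.14, adjusted p = 0.353 in limma). FKBP2, a peptidyl-prolyl isomerase of the ER that is not on the list, had a change of 0.58 (SE 0.13, adjusted p = 0.353). Both contrasts use the same arrays at -8 d, so the change is not separate evidence for the difference at -8 d.

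**Figure D3:**
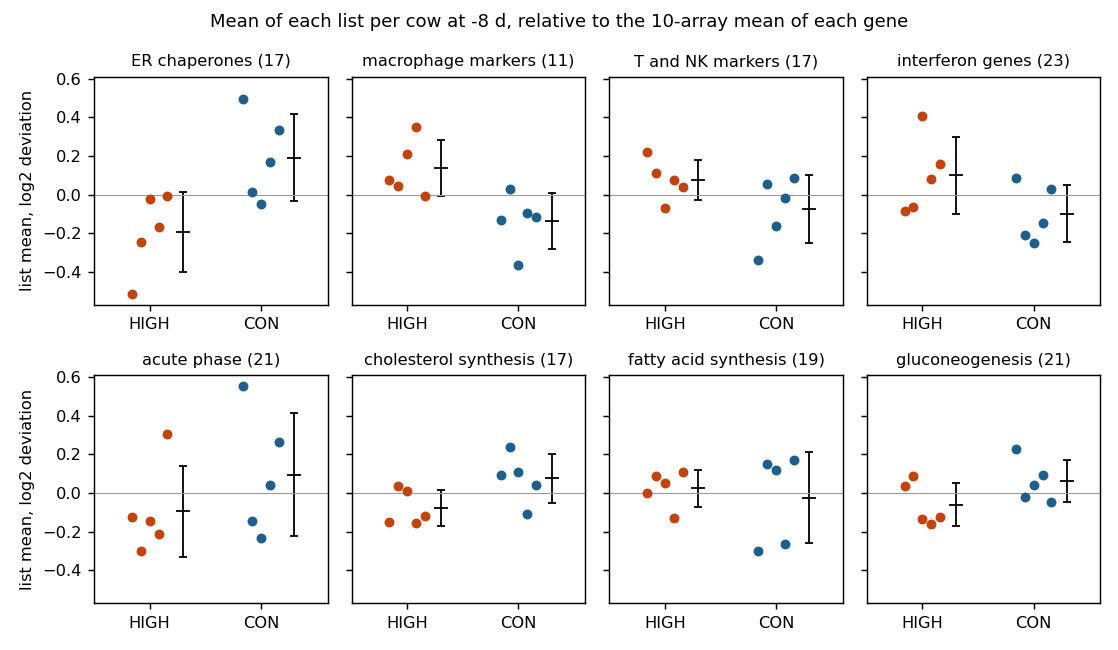
Mean of each gene list per cow at -8 d, as the log2 deviation from each gene's mean over the 10 arrays (vertical, the same scale in each panel), HIGH left and CON right, with mean and SD beside the points and the number of measured genes in parentheses. The 17 ER chaperones run from -0.52 to -0.01 in HIGH and from -0.05 to 0.50 in CON, and the macrophage markers from -0.01 to 0.35 in HIGH and from -0.37 to 0.03 in CON.

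Of the acute phase proteins, which the liver secretes in inflammation, none passed the adjusted threshold. Of 21 measured, 14 averaged lower in HIGH. Unadjusted p was under 0.05 for 3 (14.3%), all lower, against 4.29% of all genes in either direction. The count was 1 without HIGH cow 1 or without CON cow 1, and 5 without HIGH cow 5. The median difference was -0.04, and it ran from -0.07 (without HIGH cow 1) to -0.03 (without CON cow 1) when single arrays were left out. ITIH3, a heavy chain of the inter-alpha-trypsin inhibitor family, was 11.46, 10.02, 11.05, 10.96 and 11.91 in HIGH cows 1 to 5, against 12.31, 12.38, 11.88, 11.09 and 12.21 in CON cows 1 to 5, a difference of -0.85 (SE 0.27). CON cows 3 and 4 lay within the HIGH range. SAA3 (serum amyloid A3) was 7.90, 8.84, 8.14, 7.89 and 9.61 in HIGH, against 10.02, 9.67, 8.79, 9.24 and 9.32 in CON, a difference of -0.94 (SE 0.46), and SAA4 differed by -0.59 (SE 0.27). The differences at 1 d and 9 d were -0.57 and -0.94 for SAA3 and -0.25 and -0.53 for SAA4.

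HP (haptoglobin, the major acute phase protein of cattle) had a difference of the same size as SAA3 but could not be placed. It was 8.08, 7.23, 9.95, 9.10 and 13.68 in HIGH cows 1 to 5, against 14.10, 8.58, 7.70, 10.37 and 12.38 in CON cows 1 to 5. Each diet held both high and low cows, and the difference of -0.94 had a 95% interval of -2.97 to 1.08. CP (ceruloplasmin) differed by -0.13 (SE 0.06). C3, CRP, C9, CFB and SERPINA1 differed by -0.04 to 0.06, with SE of 0.09 or less. APOA1 (the main HDL apolipoprotein) was 12.18, 12.71, 12.49, 13.22 and 12.87 in HIGH, against 14.10, 12.47, 12.67, 13.57 and 13.70 in CON, a difference of -0.58 (SE 0.22) with CON cows 2 and 3 inside the HIGH range. Without both HIGH cow 1 and CON cow 1 it was -0.29.

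Of 11 measured Kupffer cell and macrophage markers (Kupffer cells are the resident macrophages of the liver), 10 were above 0, with a median of 0.27. Unadjusted p was under 0.05 for 3 (27.3%), against 4.29% of all genes in either direction. They were TIMD4, a receptor for dying cells on resident macrophages (0.66, SE 0.25), CD68, a lysosomal glycoprotein (0.42, SE 0.19), and C1QB, a chain of complement C1q (0.31, SE 0.15). TIMD4 was 8.31, 8.21, 8.85, 8.34 and 7.95 in HIGH cows 1 to 5, against 7.25, 8.11, 7.45, 7.81 and 7.80 in CON cows 1 to 5, with only CON cow 2 above the lowest HIGH cow. For CD14 (-0.14, SE 0.18) and CD5L (0.07, SE 0.09), 2 further macrophage markers, the difference was below 0 or close to it. The list level was 0.08, 0.05, 0.21, 0.35 and -0.01 in HIGH cows 1 to 5, against -0.13, 0.03, -0.37, -0.10 and -0.12 in CON cows 1 to 5, so that CON cow 2 alone overlapped. The count of 3 was 1 without HIGH cow 4, CON cow 3 or CON cow 5, while the median stayed between 0.19 and 0.32 when any 1 array was left out. In a biopsy of mixed cells, more cells of a type and more RNA per cell cannot be told apart. The part of these cells in the SLC11A1 and CD209 values above was not tested.

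The 17 T and NK cell markers had a median difference of 0.16, with 14 above 0. This median was 0.09 without CON cow 1 and 0.06 without both HIGH cow 1 and CON cow 1. CD8B (0.28, SE 0.13) and CD8A (0.38, SE 0.18), the chains of the CD8 coreceptor, had an unadjusted p under 0.05, or 11.8% against 4.29% of all genes in either direction. This count of 2 ran from 0 to 5 when single arrays were left out. Of 23 interferon-stimulated genes 21 were above 0, against 48.1% of all genes, with a median of 0.14. Only 1 had an unadjusted p under 0.05, or 4.35% against 4.29% of all genes. The median was 0.25 without HIGH cow 1, 0.09 without HIGH cow 3 or without CON cow 3, and 0.31 without both HIGH cow 1 and CON cow 1. SAMD9, an antiviral factor, was 4.88, 5.16, 6.29, 5.61 and 5.17 in HIGH, against 4.71, 4.91, 4.51, 4.77 and 5.12 in CON (difference 0.64, SE 0.21), HIGH cow 3 standing highest. HIGH cow 3 was also the highest in IFI27 (10.45) and in CXCL10 (11.03, against 7.05 to 7.91 in the other HIGH cows and 7.18 to 7.53 in CON), both induced by interferon. LTF (lactoferrin, an iron-binding protein of neutrophil granules) was 5.71, 6.14, 6.31, 6.88 and 5.17 in HIGH, against 5.40, 4.48, 5.31, 4.20 and 4.50 in CON, a difference of 1.21 (SE 0.50) that was 0.57 as the mean of its probe sets, while the 10 neutrophil markers together had a median of 0.10. BOLA-DMB, of the class II antigen loading machinery, differed by 0.32 (SE 0.14) without overlap. Medians of the endothelial, stellate cell, cholangiocyte and hepatocyte lists lay between -0.03 and 0.01. The median was 0.13 for 7 B and plasma cell markers, of which 4 were above 0, 0.06 for 10 adipocyte and muscle markers and 0.05 for 10 erythroid markers, in which HBB (beta globin) differed by 0.88 (SE 0.51).

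For genes of fat synthesis no difference was detected at this precision. Of 19 measured genes of fatty acid synthesis and desaturation none had an unadjusted p under 0.05, and the median difference was -0.00. The difference was -0.00 for SREBF1, the lipogenic transcription factor (95% interval -0.52 to 0.52), -0.19 for FASN, fatty acid synthase (-0.74 to 0.36), 0.10 for ACACA, acetyl-CoA carboxylase (-0.11 to 0.30), 0.10 for SCD, stearoyl-CoA desaturase (-0.72 to 0.92), 0.05 for FADS2 (-0.79 to 0.88) and 0.03 for ELOVL6 (-0.44 to 0.50). The intervals of SCD and FADS2 reach 0.92 and 0.88, so differences up to these sizes lie within them. THRSP, a regulator of lipogenesis, differed by 0.88 (SE 0.68) through CON cow 1, which was at 4.43 against 7.37 to 8.66 in the other CON cows and 7.22 to 8.62 in HIGH. Without CON cow 1 the difference was 0.23.

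Genes of lipid storage and export gave the same count. Of 22 measured genes of triglyceride synthesis, lipid droplets and lipoprotein assembly none had an unadjusted p under 0.05. GPAM, the first acyltransferase of glycerolipid synthesis, differed by -0.04 (-0.31 to 0.23), DGAT2 by -0.20 (-0.60 to 0.21), PLIN2, a lipid droplet coat protein, by 0.09 (-0.37 to 0.56) and MTTP, needed to assemble VLDL, by -0.06 (-0.31 to 0.19). Of 26 genes of fatty acid uptake and oxidation 17 were above 0. None passed the adjusted threshold. Unadjusted p was under 0.05 for 1 gene lower in HIGH and 1 higher, or 7.69% against 4.29% of all genes. HADHB, a subunit of the mitochondrial trifunctional protein, averaged lower in HIGH (-0.27, SE 0.09) and SLC27A5, a bile acid and very long chain acyl-CoA ligase, higher (0.21, SE 0.10). PPARA, the fasting-responsive nuclear receptor, differed by -0.04 (-0.33 to 0.25) and its targets PDK4 and ANGPTL4 by -0.14 (-0.83 to 0.54) and -0.12 (-0.70 to 0.46). ACADVL, the first dehydrogenase of long chain oxidation, differed by -0.06 (-0.29 to 0.16).

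Of 17 cholesterol synthesis genes, which the transcription factor SREBF2 activates when sterols are low, 13 were below 0 with a median of -0.11, and none passed the adjusted threshold. The median ran from -0.18 (without HIGH cow 2) to -0.10 (without CON cow 5) when single arrays were left out, and was -0.09 without both HIGH cow 1 and CON cow 1. DHCR7, which makes cholesterol in the last step, was the only one with an unadjusted p under 0.05 (-0.44, SE 0.21). That is 5.88% of the list against 4.29% of all genes in either direction. FDPS and CYP51A1 differed by -0.36 (SE 0.20) and -0.34 (SE 0.21), while HMGCS1, an early step, differed by 0.01 (-0.63 to 0.64) in its brightest probe set and by -0.55 in the other, so its probe sets disagreed. INSIG1, which holds SREBF2 back when sterols are plentiful, differed by -0.11 (-0.61 to 0.39). CYP27A1, a sterol hydroxylase of the acidic bile acid route, was 12.35, 12.28, 12.23, 12.40 and 12.44 in HIGH cows 1 to 5, against 11.88, 12.08, 12.10, 12.05 and 12.19 in CON cows 1 to 5. All HIGH cows were above all CON cows, with a difference of 0.28 (SE 0.09). CYP7A1, the rate-limiting enzyme of the classic route, differed by 0.16 (-0.65 to 0.96).

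Among genes of gluconeogenesis, the synthesis of glucose, the rate-setting enzymes are given first. PCK1, cytosolic phosphoenolpyruvate carboxykinase, was 14.09, 14.13, 14.07, 14.12 and 14.02 in HIGH cows 1 to 5, against 14.06, 14.07, 14.13, 13.95 and 13.96 in CON cows 1 to 5. The ranges overlapped and the difference was 0.05 (95% interval -0.09 to 0.18), although so bright a probe set has a compressed scale. PC, pyruvate carboxylase, was 9.83, 9.97, 9.77, 10.12 and 10.17 in HIGH, against 11.18, 9.73, 9.92, 10.34 and 10.31 in CON. CON cow 1 stood highest, and the difference was -0.32 (-0.70 to 0.05), with another of its 3 probe sets at 0.04. Without CON cow 1 the difference was -0.10. PCK2, G6PC1 and FBP1 differed by -0.12 (-0.56 to 0.32), -0.11 (-0.44 to 0.22) and 0.00 (-0.47 to 0.47).

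Of 21 measured gluconeogenesis genes, 2 had an unadjusted p under 0.05 (9.52%), both lower in HIGH, against 4.29% of all genes in either direction. The median difference of the list was -0.11, and it ran from -0.14 to 0.01 when single arrays were left out, the highest without CON cow 4. FBP2, the isoform known from muscle, had the lowest difference of the list, -0.79 (SE 0.92), with HIGH cows between 4.19 and 8.64 and CON cows between 5.73 and 8.78. LDHA, a lactate dehydrogenase subunit, was 10.70, 11.38, 11.12, 10.93 and 10.60 in HIGH, against 12.25, 10.89, 11.73, 11.59 and 11.59 in CON, a difference of -0.65 (SE 0.25), with CON cow 2 as the one CON cow inside the HIGH range. Without both HIGH cow 1 and CON cow 1 the difference was -0.42, and the mean of its probe sets over all cows differed by -0.20. MCEE, an enzyme that passes propionate carbon towards succinyl-CoA, differed by -0.28 (SE 0.10). Both had differences of the same sign later, -0.65 and -0.48 at 1 d and -0.34 and -0.30 at 9 d.

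In the growth hormone and IGF axis none of 17 measured genes had an unadjusted p under 0.05. IGF1, the growth factor secreted by the liver, was 8.58, 8.76, 8.15, 8.39 and 8.45 in HIGH cows 1 to 5, against 8.14, 8.47, 8.58, 8.41 and 8.41 in CON cows 1 to 5, and the difference was 0.06 (95% interval -0.21 to 0.32). GHR, the growth hormone receptor, differed by -0.06 (-0.59 to 0.48), SOCS2, a feedback inhibitor of its signal, by -0.19 (-0.66 to 0.29) and IGFBP2 by -0.21 (-0.63 to 0.21). IGFBP1, a binding protein that insulin suppresses, was 10.41, 13.24, 12.80, 12.87 and 12.56 in HIGH, against 12.89, 12.66, 12.85, 13.38 and 12.41 in CON. HIGH cow 1 was lowest. The difference was -0.46 (-1.28 to 0.35) with it and -0.02 without it. GPX3, a plasma glutathione peroxidase, was dim in both diets, between 3.97 and 4.60 in HIGH and between 4.17 and 4.88 in CON (difference -0.17, -0.93 to 0.59).

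**Figure D4:**
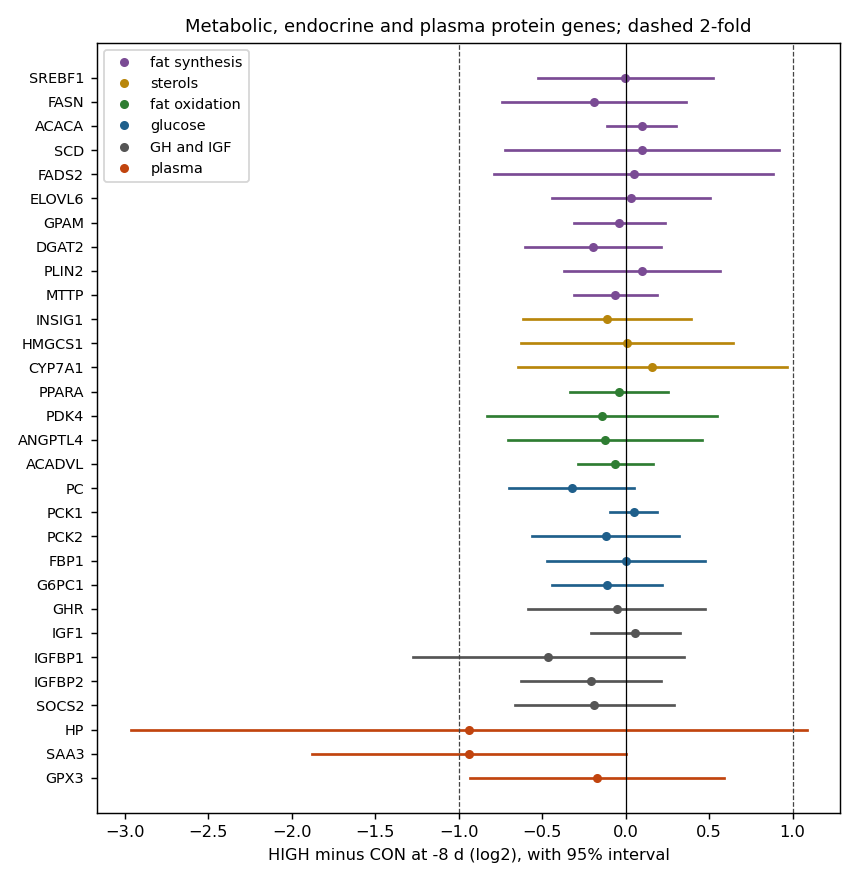
HIGH minus CON at -8 d (log2, horizontal) with its 95% interval from the fit for 30 metabolic, endocrine and plasma protein genes, coloured by role. The interval crosses 0 for every gene shown, it reaches beyond 2-fold for HP, SAA3 and IGFBP1, and it is narrowest for PCK1 (-0.09 to 0.18).

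Some further lists gave small, one-sided medians. Of 57 oxidative phosphorylation genes 47 were below 0, but the median was only -0.05, and of 59 cytosolic ribosomal protein genes 49 were below 0 with a median of -0.04. Oxidative stress defence was not one-sided, with 13 of 27 genes above 0, 14 below and a median of -0.0005. Unadjusted p was under 0.05 for 2 higher and 2 lower, or 14.8% against 4.29% of all genes, and none passed the adjusted threshold. GPX4, which reduces lipid peroxides, was 9.86 to 9.89 in HIGH and 9.90 to 10.38 in CON (difference -0.28, SE 0.11). Its diets did not overlap, which held for 0.896% of all genes. PRDX2 differed by -0.36 (SE 0.17) and HMOX1, haem oxygenase, by 0.38 (SE 0.18). Of 27 immediate early, stress and heat shock genes 1 had an unadjusted p under 0.05, or 3.70% against 4.29% of all genes, and it was BHLHE40, a transcriptional repressor linked to the clock (0.71, SE 0.30), with CON cow 4 lowest at 7.52.

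After calving few or no probe sets passed the adjusted threshold for diet. At 1 d 1 probe set passed (0.00416%), for SLC18A2, a vesicular monoamine transporter: 5.82 ± 0.16 in HIGH (n = 6) and 5.21 ± 0.27 in CON (n = 4), a difference of 0.61 (SE 0.10, adjusted p = 0.0321 in limma). Its difference at -8 d was 0.02, and the change between these days had an adjusted p of 0.353. Unadjusted p was under 0.05 for 2013 probe sets at 1 d (8.38%) and for 813 at 9 d (3.39%), where 0 passed, against the 4.27% at -8 d. For the change of the diet difference 0 probe sets passed in limma, both for 1 d minus -8 d (1723 with unadjusted p under 0.05, 7.17%) and for 9 d minus -8 d (789, 3.29%), so no difference between days was shown.

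The spread between cows of one diet exceeded the diet difference for many genes. The pooled within-diet SD had a median of 0.145 over 9155 genes, and 34 genes had an SD above 1.0. The genes described here were chosen from the 20 with the largest SD, after their values were seen. HP led with an SD of 2.57, and its level at 9 d differed from that at -8 d by a median of 3.215 (n = 10 cows). It was higher at 9 d in 8 of the 10 cows. At 1 d it lay between 14.78 and 14.95 in all 8 cows measured on both days, so its change was largely a rise shared across calving. BOLA-N, a class I major histocompatibility gene, came next, at 7.48, 5.73, 5.10, 4.97 and 10.73 in HIGH cows 1 to 5, against 4.84, 10.12, 5.12, 8.79 and 7.32 in CON cows 1 to 5. High and low cows occurred in both diets, yet each cow kept its level, with a median absolute change of 0.165 by 9 d.

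BOLA-DQA5, a class II gene, fell into separate levels: HIGH cow 3 at 8.05 and CON cows 1 and 3 at 7.55 and 7.78, and the other cows between 3.37 and 4.02. Class I and class II genes are polymorphic and have close copies, so a probe set may read some alleles or copies and not others, and these values are uncertain as expression. FBP2, a fructose bisphosphatase of muscle, CYP2B6, a drug-metabolising cytochrome, and S100A10, an annexin partner, also differed widely between cows and mostly less within a cow. Their median absolute changes by 9 d were 0.52, 0.295 and 0.375, but the largest in a single cow were 1.43, 0.73 and 1.05. S100A10 had the lowest diet difference of all genes, -1.56 (SE 0.85). It was 11.09, 7.04, 11.31, 7.88 and 6.68 in HIGH, against 10.26, 11.23, 10.80, 9.73 and 10.14 in CON, so the low level was held by HIGH cows 2, 4 and 5. PRSS2, a trypsinogen, had the highest, 1.31, with HIGH cows between 4.00 and 7.66 and CON cows between 3.89 and 4.36.

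**Figure D5:**
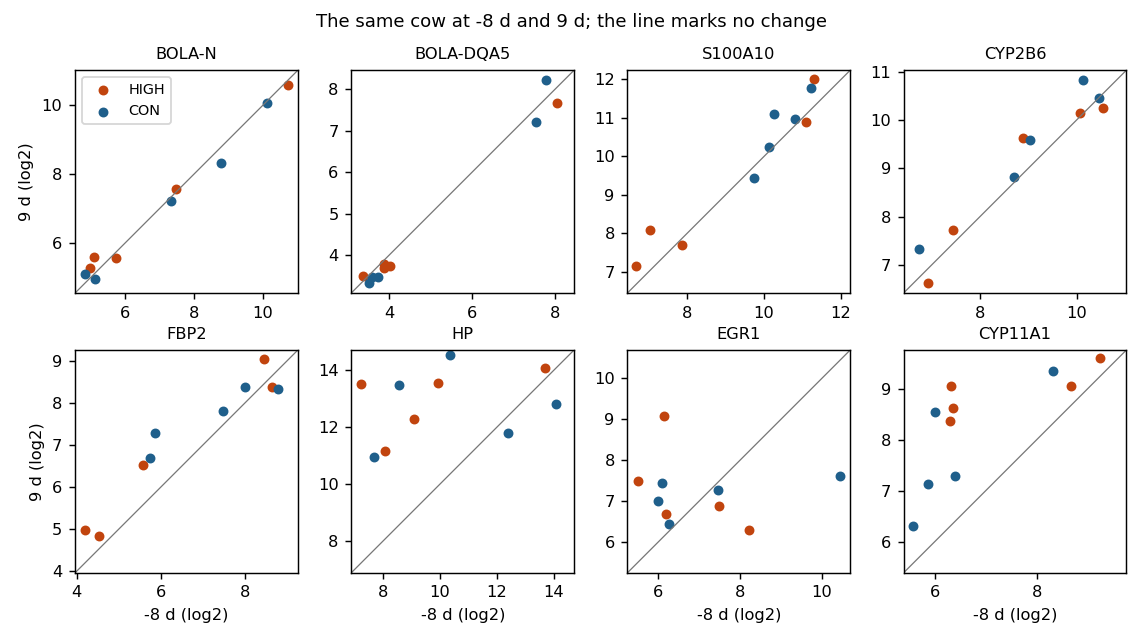
Log2 RMA values of the same cow at -8 d (horizontal) and 9 d (vertical) for 8 of the 20 genes with the largest spread between cows, with HIGH and CON cows coloured and a line at no change. BOLA-N and BOLA-DQA5 follow the line in both diets, while HP lies above it for 8 of 10 cows and EGR1 scatters around it.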

How the data were processed

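Liver RNA was measured on Affymetrix bovine arrays. The authors deposited log2 values made with Affymetrix Expression Console 1.1 and RMA, per the submitters' processing notes; RMA settings are not given in the sources used here. Arrays were grouped by diet and day from their titles. Of 24128 probe sets, 112 controls were left out, with no filter on level or detection call; 13292 had 1 symbol, 86 several and 10638 none here. Values ran from 2.35 to 15.0, with array medians of 5.87 to 5.935, and the number of arrays limits the precision.

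All 32 arrays were fitted in limma 3.58.1 (R 4.3.3) with a mean for each of the 6 groups, cow as random effect (estimated correlation 0.138) and a mean-variance trend. P was two-sided and adjusted by Benjamini-Hochberg over 24016 probe sets, threshold 0.05. Exact permutation compared the 10 arrays at -8 d. The fit was also run on simulated data with genes drawn independently. That run does not bear on the lists, whose genes can vary together. Alternatives changed the samples, block, trend, filter, scaling, weights, test and probe set per gene, and left out each array.

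Named were the 15 genes per direction with the smallest p (since none passed), 32 fixed genes (30 found), up to 4 members per list with the smallest p and 5 per interaction; others named were chosen after their values were seen. The members and the 42 lists were chosen with earlier results of these data known. Same-numbered HIGH and CON arrays are different cows, so the numbers do not pair them.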

Additional observations from a re-analysis of the deposited data

Results flagged for a closer look

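The expression of 118 named genes was examined in each diet at -8 d, 236 groups of 5 cows. In 14 groups the extreme cow stood apart from the others by more than Dixon's 95% critical value of 0.71 of the range, a criterion that chance meets in about 1 group in 20 (on average). Within HIGH, BOLA-DQA5 was 8.05 in 1 cow against 3.37 to 4.02 in the others, CXCL10 was 11.03 against 7.05 to 7.91, CYP7A1 was 11.43 against 10.57 to 10.8, and IGFBP1 was 10.41 against 12.56 to 13.24. HERPUD1 was 10.92 against 11.39 to 11.55, THRSP was 7.22 against 8.23 to 8.62, FASN was 7.6 against 7.86 to 7.96, PLIN2 was 7.07 against 7.5 to 7.59, and C9 was 14.05 against 14.14 to 14.17. Within CON, BHLHE40 was 7.52 in 1 cow against 8.99 to 9.21 in the others, ANGPTL4 was 8.01 against 6.96 to 7.17, and HPGD was 9.82 against 10.39 to 10.59. IFI27 was 9.54 against 8.87 to 9.02, and SLC27A5 was 9.47 against 9.14 to 9.21.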

How the results depend on the processing

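No probe set passed at -8 d under any alternative fit run, the replicate block included; the exact permutation test, with a smallest p of 0.00794, has almost no room to pass after adjustment and says nothing here. The number with unadjusted p under 0.05 was 1025 and ran from 804 to 1167 when 1 array was left out; it was 627 of fewer probe sets without the dim ones. At 1 d the count of 1 became 2 without the cow block and 0 with only the 8 cows that have all 3 days. Counts of list members with unadjusted p under 0.05 moved most. For ER chaperones (11) they ran from 3 to 13 when 1 array was left out, 3 with the 8 cows and 1 without both HIGH 1 and CON 1, while the median stayed between -0.40 and -0.27. Macrophage markers (3) ran from 1 to 4, and gave 7 both with only the 10 arrays at -8 d and with the replicate block. T and NK markers (2) ran from 0 to 5, with 1 without the cow block, with median-centred arrays and with array weights, 4 with the 8 cows, and 0 without both arrays. Interferon genes (1) ran from 1 to 2, with 5 in the 10 arrays and with the replicate block, 3 with array weights, 2 with the 8 cows and 3 without both arrays. Acute phase proteins (3) ran from 1 to 5, with 5 in the 10 arrays, 6 with the replicate block, 1 with the 8 cows and 1 without both arrays. Cholesterol synthesis (1) ran from 0 to 2, with 5 in the 10 arrays, 4 with the replicate block, 3 with the 8 cows (median -0.20), and 0 with robust eBayes, without dim probe sets and without both arrays. Fatty acid synthesis (0) ran from 0 to 1, with 1 without both arrays. Gluconeogenesis (2) ran from 1 to 4, with 4 under the replicate block and 0 without both arrays, and its median ran from -0.1369 to 0.0125. The causes were not tested. The replicate numbers mark different cows, and residuals of same-numbered arrays correlated between -0.1214 and 0.1137.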
